A study of Mus musculus with 15 samples.

Results

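The comparison described here sets mammospheres treated with U0126 directly against mammospheres treated with TAE226, without vehicle in the contrast. U0126 blocks MEK1, which phosphorylates and activates ERK, while TAE226 blocks focal adhesion kinase (FAK). The samples were chosen by their titles, 3 for each inhibitor, and make up 6 of the 15 samples of the series. All were primary mammary tumour cells of FVB/N mice carrying MMTV-PyMT, a transgene in which the mouse mammary tumour virus promoter drives the polyoma middle T oncogene in mammary epithelium. The cells grew as floating spheres without serum, with EGF, FGF and B27, for 10 days before an inhibitor was added for 2 days. Vehicle-treated spheres of the same age, also 3 samples, are given beside the results as the background. No source used here gives the doses, so the contrast compares these 2 treatments and not equal degrees of inhibition. Total RNA was hybridised to Affymetrix Mouse430_2 arrays, and log2 MAS5 signals are given throughout.

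MEK and FAK both act below growth factor receptors and integrins. MEK phosphorylates ERK, which enters the nucleus and switches on immediate early genes, ETS family transcription factors and the phosphatases and Sprouty proteins that damp the pathway. FAK is a tyrosine kinase recruited to integrins at sites of contact with the matrix, where it binds Src and passes signals to ERK, PI3 kinase and the actin skeleton. In the PyMT model, middle T itself engages Src, PI3 kinase and Shc, so both routes are active in the tumour epithelium. The study's title names the phosphatase Shp2, which acts above both, and senescence.

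Median signals ran from 72.9 to 90.6 over these 6 arrays, and the number of arrays limits the precision. Arrays of 1 inhibitor differed from each other by a median of 0.10 to 0.133 log2 units, and arrays of different inhibitors by 0.225 to 0.265. The labels call the samples biological replicates without saying whether they were separate mice or cultures, so the p-values speak only of the spread among them, which may be technical. Array numbers in the labels ran by treatment, so array order and treatment cannot be told apart. The 3′ to 5′ signal ratio of the actin control was 1.28 ± 0.067 under U0126 and 1.33 ± 0.075 under TAE226 (SD, n = 3, exact permutation p = 0.6, two-sided, where 0.1 is the smallest p that 3 against 3 allows). Epithelial genes were bright in both groups, with Krt8 at 14.19, 14.37 and 14.10 under U0126 and 13.99, 14.28 and 14.32 under TAE226, and Cdh1 between 13.37 and 13.74 on all 6 arrays. Of 9 fibroblast markers only Col1a2 was bright enough to test, of 7 endothelial markers only Kdr, and of 4 adipocyte markers on the array none. Among 8 markers of macrophages and leukocytes on the array, 4 were tested. Cd14 was called, while Cd68, Adgre1 and Csf1r were not.

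A gene was tested where its probe set lay above the array's median on at least 3 of the 15 arrays, and it was called at an adjusted p under 0.05 in limma. Of 11465 genes tested, 4250 (37.1%) were called. Under U0126, 2031 genes (17.7%) were higher than under TAE226 and 2219 (19.4%) were lower. All counts of list members below are to be read against these shares. Where a gene is said to have fallen or risen, it was lower or higher under U0126 than under TAE226, which is no change from vehicle. A change of at least 2-fold by fitted values was rarer, with 168 genes (1.47%) higher under U0126 and 262 (2.29%) lower, 3.75% together. Against vehicle, 40.7% of genes were called under U0126 and 30.9% under TAE226. The arrays of both inhibitors did not overlap for 5400 genes (47.1%), called or not. Non-overlap was also a condition for choosing the genes of greatest difference, so for those it is no separate support. Over all genes tested, the median log2 fold change was -0.03. Centring each array on the median of all its probe sets, tested or not, moved that value by 0.17 log2 units, to 0.15. The split then became 2979 higher and 768 lower. Quantile normalization gave a median of 0.001, with 2167 higher and 2050 lower, near the main split. Small changes downward thus depend on which scaling is used. Results given below with arrays centred carry that upward shift of 0.17.

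**Figure D1:**
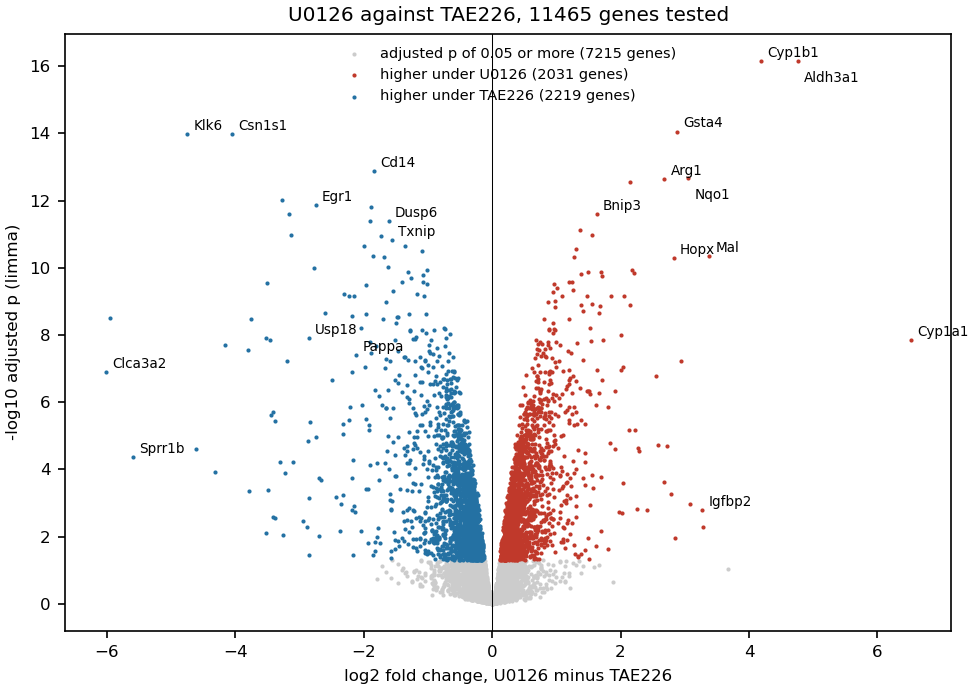
Log2 fold change of each gene, U0126 minus TAE226 (x axis), against -log10 of limma's adjusted p (y axis) for 11465 genes. Red points are 2031 genes higher under U0126, blue points 2219 genes lower, grey points were not called. Cyp1a1 and Igfbp2 are dim under TAE226, and Clca3a2, Sprr1b and Klk6 under U0126, so that their fitted values are no measured folds.

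Xenobiotic genes controlled by the aryl hydrocarbon receptor (AHR) were far higher under U0126. AHR is a ligand-activated transcription factor which, paired with ARNT, binds a short core of GCGTG and switches on enzymes that oxidise and conjugate foreign compounds. All 5 of its targets tested were called and at least 2-fold higher, with a median log2 fold change of 4.19, against 17.7% of all genes called in that direction. Cyp1a1, a cytochrome P450 that oxidises polycyclic aromatics, read 12.09, 11.95 and 12.03 log2 units under U0126 and 5.69, 5.88 and 4.95 under TAE226. Its signal under TAE226 lay below the array median on all 3 arrays, so it was at least 47.7-fold higher under U0126 when those arrays were held at their medians (adjusted p = 1.45e-08). Cyp1b1, a related P450, read 14.05, 14.17 and 13.92 under U0126 against 9.85, 9.90 and 9.84 under TAE226. That is a difference of 4.18 ± 0.07 (SE, adjusted p = 6.91e-17), or 18.2-fold, with the groups far apart. Aldh3a1, an aldehyde dehydrogenase, read 13.48, 13.73 and 13.50 against 8.82, 8.86 and 8.74, which is 27.2-fold.

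Tiparp, a poly-ADP-ribosyltransferase that feeds back on AHR, read 11.66, 11.66 and 11.57 under U0126 and 9.46, 9.46 and 9.55 under TAE226, a difference of 2.14 ± 0.06. Nqo1, a quinone reductase that answers to AHR and to NRF2, read 12.44, 12.58 and 12.39 against 9.46, 9.28 and 9.51, a difference of 3.05 ± 0.09. In both genes every U0126 array was higher than every TAE226 array. Against vehicle, which both comparisons share, Tiparp differed by 1.84 under U0126 and -0.30 under TAE226, and Nqo1 by 2.66 and -0.39. Cyp1b1 and Aldh3a1 were called higher than vehicle under each inhibitor, by 5.63 and 6.15 under U0126 and by 1.45 and 1.39 under TAE226. Action of either compound on AHR itself was not tested.

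Promoters of 4 of the 5 AHR targets were in the RefSeq promoter table (GRCm38.p6, 250 bases before to 50 after the start). GCGTG or its complement CACGC stood in 3 of them, and in 32.4% of all 32851 promoters of the table. The stretches around the matches are shown for the 3 targets that hold one, 5′ to 3′ on the gene's strand with the core in capitals. They lie at chr9:57697519-57697603 (plus strand) for Cyp1a1, chr17:79715093-79715177 (minus) for Cyp1b1 and chr3:65528237-65528321 (plus) for Tiparp.
Cyp1a1: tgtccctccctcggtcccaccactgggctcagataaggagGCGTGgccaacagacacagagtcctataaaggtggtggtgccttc
Cyp1b1: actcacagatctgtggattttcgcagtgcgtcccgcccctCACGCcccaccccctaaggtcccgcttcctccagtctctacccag
Tiparp: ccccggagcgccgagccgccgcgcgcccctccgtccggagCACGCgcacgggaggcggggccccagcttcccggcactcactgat
Each holds 1 match, which begins 54 bases before the start in Cyp1a1, 76 in Cyp1b1 and 170 in Tiparp. A match is a description of the letters and not evidence of binding.

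Conjugating and reducing enzymes were higher under U0126 as well. NRF2 is the transcription factor that answers to oxidants and electrophiles, and 5 of 8 of its tested targets were called higher and none lower (median 0.53). Me1, the cytosolic malic enzyme that makes NADPH, read 11.45, 11.43 and 11.55 under U0126 and 10.45, 10.52 and 10.52 under TAE226, a difference of 0.98 ± 0.06. Gclc, the catalytic subunit of glutathione synthesis, differed by 0.66 ± 0.05 and was called higher than vehicle under each inhibitor, by 1.29 under U0126 and 0.63 under TAE226. Of 13 glutathione transferases tested, 8 were higher and 1 was lower (median 0.46). Gsta4, which conjugates products of lipid peroxidation, read 12.23, 12.41 and 12.28 under U0126 and 9.50, 9.31 and 9.47 under TAE226, which is 7.37-fold. Gsta3, an alpha class transferase, differed by 2.18 ± 0.10, and Mgst2, a membrane-bound transferase, by 2.05 ± 0.11. Gstp1, the pi class enzyme, read 13.67, 13.77 and 13.59 against 12.70, 12.69 and 12.76. The groups did not overlap in any of these genes, as they did not in 47.1% of all genes tested. Gstt3 was the member that fell, by 0.44 on the log2 scale, and it was no longer called when arrays were centred (adjusted p = 0.0598). GCGTG stood in a promoter of 3 of 5 NRF2 targets and of 4 of 11 transferases, counted per gene and not per promoter.

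**Figure D2:**
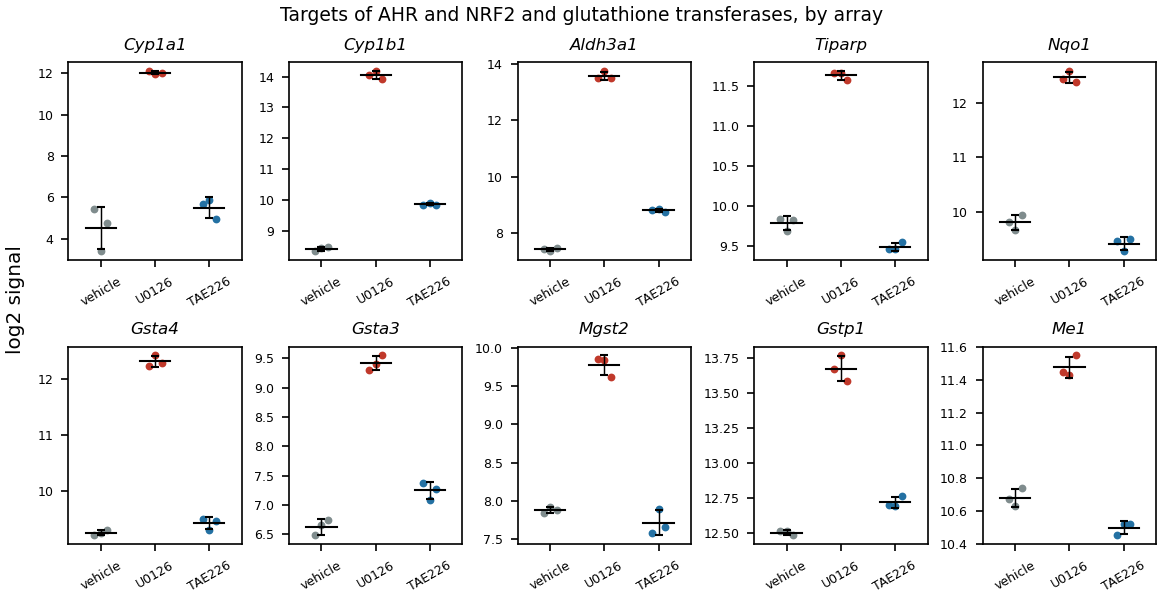
Log2 signal (y axis) of 10 genes on the 3 arrays each of vehicle, U0126 and TAE226 (x axis). Points are arrays, horizontal bars are means and whiskers SD. In every panel the red U0126 points lie above both other groups, by 4.18 log2 units over TAE226 for Cyp1b1 and 0.96 for Gstp1.

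Genes known to be switched on by ERK were lower under U0126. Of 16 tested genes of ERK feedback and ETS output, 10 were called lower and 1 higher (median -0.42), against 19.4% of all genes lower. With arrays centred on their medians 6 were lower and 2 higher, and without TAE226 replicate 2 the higher count was 2 as well. Dusp6, the cytoplasmic ERK phosphatase, read 11.12, 10.93 and 11.16 under U0126 and 12.69, 12.68 and 12.67 under TAE226. It fell by 1.61 ± 0.06 (adjusted p = 4.18e-12), or 3.05-fold, with no overlap. Phlda1, a pleckstrin-homology protein transcribed in answer to ERK, read 12.36, 12.38 and 12.46 against 13.45, 13.37 and 13.42. Dusp4, a nuclear ERK phosphatase, fell by 0.83 ± 0.10, Etv5, an ETS factor, by 0.81 ± 0.16 and Spry2, a Sprouty inhibitor of receptor signalling, by 0.75 ± 0.15, although a second probe set of Spry2 was not called (-0.38, adjusted p = 0.0559).

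Against vehicle, Dusp6 differed by -2.0 under U0126 and -0.39 under TAE226, and Phlda1 by -1.32 and -0.31, and all 4 differences were called. Etv5 differed from vehicle by -1.69 and -0.87. Several members of the list were weaker. Dusp7 fell by 0.28, Epha2 by 0.40 and Spry1 by 0.44. With arrays centred, Dusp7 (adjusted p = 0.377), Epha2 (adjusted p = 0.085) and Spry1 (adjusted p = 0.199) were not called. Spry1 was also not called with quantile normalization (adjusted p = 0.0518) or without U0126 replicate 3 (adjusted p = 0.0932) or TAE226 replicate 2 (adjusted p = 0.065) or 3 (adjusted p = 0.0805). Dusp5 differed by -0.75 ± 0.27 (adjusted p = 0.0412) and lost its call without any 1 of 4 arrays, U0126 replicate 3 or TAE226 replicate 1, 2 or 3, and in 4 other settings, with arrays centred among them (adjusted p from 0.0612 to 0.114). Ccnd1, the cyclin of the G1 phase, was the member called higher, by 0.21, and not without U0126 replicate 2 (0.16, adjusted p = 0.0566) or with quantile normalization (0.10, adjusted p = 0.14). Etv4 (0.28, -1.29 by its second probe set), Spred1 (-0.25), Spred2 (-0.16, 0.01 with arrays centred), Spred3 (0.74) and Spry4 (-0.39) were not called. Spred3 was called with arrays centred (adjusted p = 0.0253), with quantile normalization (adjusted p = 0.0208) and with a pseudocount at the median signal (adjusted p = 0.0465).

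Immediate early genes were split. Of 12 tested, 6 were lower under U0126 and 3 higher (median -0.70, or -0.39 with genes dim under 1 inhibitor held at their bounds). Egr1, a zinc-finger factor induced within minutes of growth factor signalling, read 10.16, 9.93 and 10.14 under U0126 and 12.57, 12.93 and 12.97 under TAE226. It fell by 2.75 ± 0.09 on the log2 scale, which is 6.71-fold, and against vehicle it differed by -3.11 under U0126 and -0.36 under TAE226. Its relative Egr3 read 6.21, 6.14 and 6.39 against 8.49, 8.11 and 8.25. Egr2 was dim under U0126, at 0.78, 1.44 and 4.92, and at least 1.34-fold lower than under TAE226. Ier2 read 10.45, 10.65 and 10.53 against 11.53, 11.64 and 11.66, and Fos, an AP-1 subunit, fell by 0.67 ± 0.08, and Junb by 0.72 ± 0.11.

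The members higher under U0126 were Ier3, by 0.63 ± 0.06, Fosl2, another AP-1 subunit, by 0.57 ± 0.08, and Myc, by 0.17 ± 0.06. Ier3 read 14.04, 14.20 and 13.97 against 13.32, 13.52 and 13.46, and arrays of the inhibitors overlapped in none of the members named. Myc lost its call without U0126 replicate 1 (adjusted p = 0.0644) or 2 (adjusted p = 0.183) and without TAE226 replicate 1 (adjusted p = 0.179) or 3 (adjusted p = 0.0533), and in 4 other settings (adjusted p from 0.0563 to 0.0881). A second probe set of Fosl2 gave 0.64 and was not called (adjusted p = 0.0554). An AP-1 site, TGANTCA, was in any promoter of 0 of 7 genes of the list and in 7.81% of all promoters. The direct targets of the inhibitors and their kin differed little at the RNA level, with 3 of 8 called, all lower under U0126. Src fell by 0.55 ± 0.15, Igf1r by 0.49 ± 0.10 and Insr by 0.31 ± 0.08, and none of them was called with arrays centred (adjusted p = 0.0615, 0.0697 and 0.411). Map2k1, which encodes MEK1, differed by 0.13 ± 0.06 (adjusted p = 0.0903, or 0.0366 with arrays centred), Map2k2 by 0.01 ± 0.08, Ptk2b, the FAK relative Pyk2, by -0.42 ± 0.21 (adjusted p = 0.131), and Ptpn11, which encodes Shp2, by -0.06 ± 0.05 (0.12 with arrays centred). Braf was at -0.05 ± 0.08 (0.12 with arrays centred), and its second probe set at 0.38 (adjusted p = 0.000735). The second probe set of Insr was not called (adjusted p = 0.125). RNA levels do not measure the activity of these kinases, and known action of TAE226 on IGF-1 and insulin receptors was not tested.

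Milk protein genes were lower under U0126. The list holds caseins, whey proteins and enzymes of the secreting alveolar cell. Of 16 tested members, 12 were lower and 1 was higher (median -1.03, or -0.52 with dim genes at their bounds). By fitted values 8 of the lower members differed at least 2-fold, among them Csn2 and Muc1, which were dim and have bounds below 2-fold. Csn1s1, the alpha-S1 casein, read 7.47, 6.98 and 7.07 under U0126 and 11.26, 11.21 and 11.24 under TAE226, which is 16.7-fold lower (adjusted p = 1.02e-14). Csn3, the kappa casein, read 12.96, 13.06 and 12.88 against 14.25, 14.50 and 14.59. In the vehicle arrays Csn1s1 stood at 12.39, 12.40 and 12.49 and Csn3 at 14.58, 14.47 and 14.71, so Csn1s1 was highest in vehicle, while TAE226 and vehicle overlapped for Csn3. A second probe set of Csn3 gave a difference of -3.15. Ltf, the iron-binding lactoferrin, read 10.16, 10.38 and 10.08 under U0126 and 12.15, 12.34 and 12.14 under TAE226, a fall of 4.01-fold.

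Other members were dim under U0126 and give bounds. Csn2, the beta casein, was at least 1.44-fold lower, Muc1, an apical mucin, at least 1.49-fold and Lalba, the lactose synthase cofactor, at least 2.03-fold. Lalba read 6.14, 2.10 and 2.29 under U0126 and 6.98, 7.44 and 7.47 under TAE226. Btn1a1, the butyrophilin of the milk fat globule membrane, went the other way, at 9.38, 9.54 and 9.18 against 8.20, 8.16 and 8.19, a rise of 1.18 ± 0.09. In bulk samples, fewer cells of a type and less RNA per cell cannot be told apart.

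**Figure D3:**
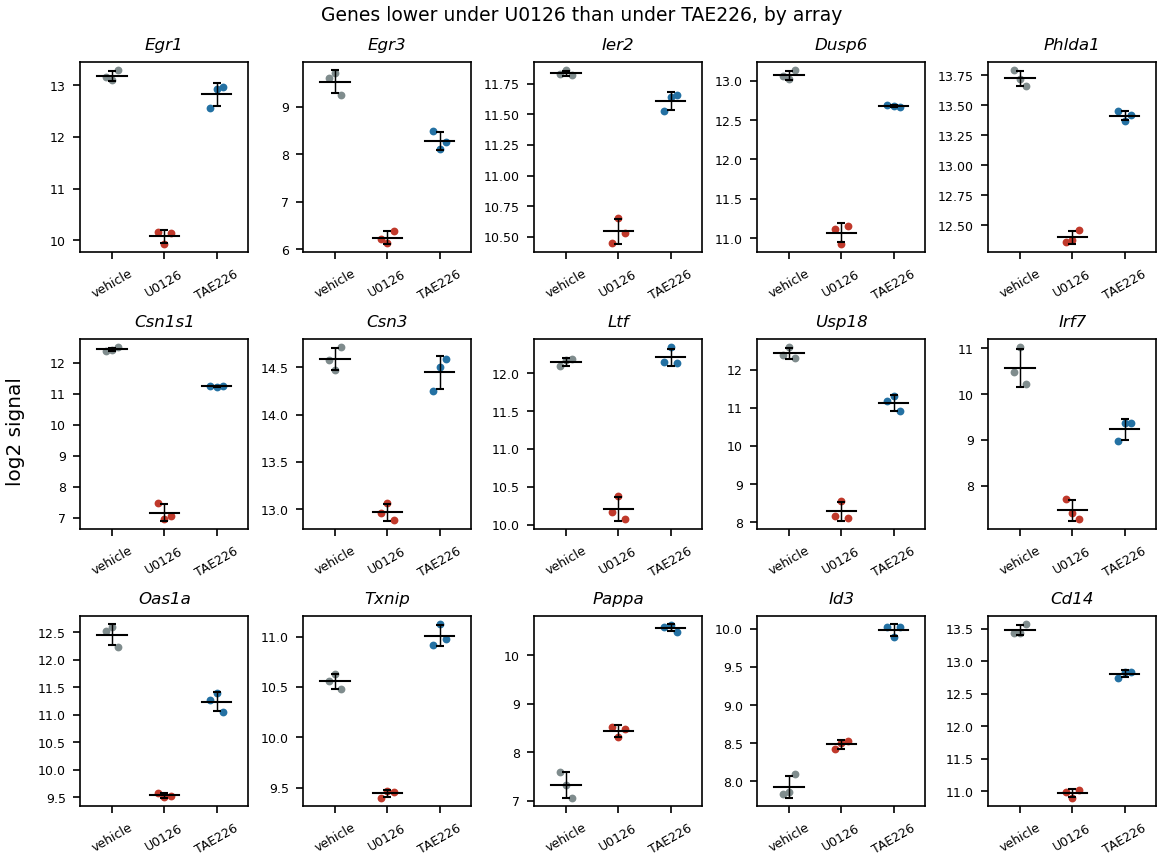
Log2 signal (y axis) of 15 genes on the 3 arrays each of vehicle, U0126 and TAE226 (x axis). Points are arrays, horizontal bars are means and whiskers SD. The red U0126 points lie below the blue TAE226 points in every panel, by 2.75 log2 units for Egr1 and 4.06 for Csn1s1, and Pappa and Id3 are the panels where vehicle is the lowest group.

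Interferon-responsive genes were lower under U0126 than under TAE226, with the list's median below vehicle under both. Interferons act through JAK kinases and complexes of STAT and IRF factors, which bind elements built from GAAA repeats. Of 15 tested members, 12 were lower and none higher (median -1.26, or -1.07 with dim genes at their bounds). The list's median difference from vehicle was -3.12 under U0126 and -1.59 under TAE226. Usp18, a protease that damps interferon receptor signalling, read 8.16, 8.56 and 8.12 under U0126, 11.19, 11.31 and 10.91 under TAE226 and 12.40, 12.59 and 12.32 in vehicle. It was 7.25-fold lower under U0126 than under TAE226 (adjusted p = 1.21e-08), and the 3 groups did not overlap.

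Irf7, a transcription factor that amplifies the response, read 7.71, 7.40 and 7.27 under U0126 and 8.97, 9.36 and 9.37 under TAE226. Oas1a, an enzyme that activates RNase L, read 9.58, 9.50 and 9.53 against 11.27, 11.40 and 11.05. Ifih1, the RNA sensor MDA5, fell by 1.26 ± 0.06, and Stat2 by 1.07 ± 0.16. Oasl2, which was dim under U0126, was at least 4.04-fold lower, and Ifit1, an RNA-binding protein, read 6.56, 7.81 and 7.82 against 9.38, 9.56 and 8.97. Among the genes with the greatest falls overall were 3 interferon-inducible ones. Ddx60 and Ifi27l2a were dim under U0126 and at least 3.47-fold and 8.89-fold lower. Gbp3, a guanylate-binding protein, was 11.0-fold lower at 5.63, 6.77 and 6.74 against 9.93, 9.95 and 9.64.

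The interferon element was read here as GAAA, any 2 bases and GAAA on either strand. It was in a promoter of 8 of 12 interferon genes, and of 6 of 12 when only the 250 bases before the start were read. Among all promoters, counted per promoter and not per gene, 3.44% held it. The stretches below are shown for 3 of the genes that were called lower and hold a match before the start. Cxcl10 and Rsad2 were also called lower with such a match and are not shown. They lie at chr19:34640745-34640853 (plus strand) for Ifit1, chr5:120907526-120907585 (minus) for Oas1a and chr10:128270248-128270325 (plus) for Stat2, in GRCm38.p6 as given by RefSeq, and capitals mark the element or its complement.
Ifit1: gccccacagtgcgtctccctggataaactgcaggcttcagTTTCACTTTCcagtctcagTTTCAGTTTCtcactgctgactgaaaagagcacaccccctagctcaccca
Oas1a: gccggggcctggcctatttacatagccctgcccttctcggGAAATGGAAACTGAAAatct
Stat2: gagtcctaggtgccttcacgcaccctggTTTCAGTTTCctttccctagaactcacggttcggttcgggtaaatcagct
Ifit1 holds 2 matches apart from each other, Oas1a 2 that overlap within 1 run, and Stat2 1.

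Genes that load peptides on MHC class I moved with them. Of 10 tested, 8 were lower under U0126 and none higher (median -0.52, or -0.41 with dim genes at their bounds), and 5 were lower with arrays centred. Psmb8, a subunit of the immunoproteasome, read 7.50, 6.91 and 6.92 under U0126 and 8.55, 8.75 and 8.43 under TAE226, against 10.59, 10.78 and 10.32 in vehicle. Psmb10, another such subunit, fell by 1.13 ± 0.10. Tapbp, which holds empty class I molecules at the peptide transporter, fell by 0.76 ± 0.07 and H2-D1, a class I heavy chain, by 0.59 ± 0.06. The element was in a promoter of 1 of 8 genes of the list.

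Hypoxia-inducible and glycolytic genes were higher under U0126 than under TAE226. HIF1 is stable when oxygen is short and binds a core of ACGTG in genes of glucose uptake, glycolysis, vessel growth and pH control. Of 17 tested, 16 were higher and none lower, 8 of them at least 2-fold (median 1.0). Their median difference from vehicle was -0.12 under U0126 and -1.03 under TAE226, so the distance between the inhibitors came with lower levels under TAE226. Egln3, an oxygen-sensing prolyl hydroxylase, read 10.06, 10.06 and 10.21 under U0126, 8.00, 7.78 and 8.14 under TAE226 and 11.40, 11.30 and 11.37 in vehicle. It was 4.40-fold higher under U0126 than under TAE226 and below vehicle in both.

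Bnip3, a mitophagy receptor, read 10.93, 10.87 and 10.97 under U0126 and 9.25, 9.32 and 9.30 under TAE226, a rise of 1.63 ± 0.06 (adjusted p = 2.47e-12). Adm, the vasodilator adrenomedullin, read 9.20, 9.40 and 9.68 against 6.68, 6.55 and 6.22, which is 7.69-fold. Pfkfb3, which drives phosphofructokinase, read 8.63, 8.31 and 8.76 against 6.71, 7.13 and 6.34. Hk2, a hexokinase, was higher by 1.47 ± 0.08, Vegfa, the endothelial growth factor, by 1.30 ± 0.14 and Car9, a carbonic anhydrase, by 1.13 ± 0.12, with no overlap in any of them. Adm and Vegfa under U0126 were not called different from vehicle (adjusted p = 0.0503 and 0.109), whereas under TAE226 they differed from it by -2.35 and -1.59. A second probe set of Vegfa gave 1.05 between the inhibitors and was not called (adjusted p = 0.0512).

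ACGTG or its complement stood in a promoter of 12 of 16 genes of the list and in 19.6% of all promoters. A gene was counted where any of its promoters held a match, so these shares are of unlike units. The core ACGTG shares the letters CGTG with the AHR core GCGTG, but the same 5 bases cannot match both. Stretches are shown for 4 of the genes with values above. They lie at chr12:54204059-54204124 (minus strand) for Egln3, chr7:138909569-138909654 (minus) for Bnip3, chr4:43506968-43507025 (plus) for Car9 and chr2:11553945-11554029 (minus) for Pfkfb3, in the same build, with the core or its complement in capitals.
Egln3: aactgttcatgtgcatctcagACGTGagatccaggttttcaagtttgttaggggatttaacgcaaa
Bnip3: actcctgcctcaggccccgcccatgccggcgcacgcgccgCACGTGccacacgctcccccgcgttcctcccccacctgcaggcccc
Car9: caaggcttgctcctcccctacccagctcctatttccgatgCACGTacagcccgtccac
Pfkfb3: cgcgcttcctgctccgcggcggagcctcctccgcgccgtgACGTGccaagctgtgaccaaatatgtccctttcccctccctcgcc
In Bnip3 the run CACGTG reads the core on both strands, and Pfkfb3 has a second promoter in the table that holds the core too.

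Mitotic genes were higher under U0126 than under TAE226. Of 23 tested genes of G2 and mitosis, 19 were higher and none lower (median 0.51), none by 2-fold. Their median difference from vehicle was -0.10 under U0126 and -0.57 under TAE226. Ube2c, the ubiquitin-conjugating enzyme of the anaphase-promoting complex, read 11.86, 11.74 and 11.65 under U0126 and 10.76, 10.88 and 10.93 under TAE226, a rise of 0.89 ± 0.10. Birc5, the chromosomal passenger survivin, was higher by 0.73 ± 0.10, Aurkb by 0.72 ± 0.09 and Ccnb2, cyclin B2, by 0.70 ± 0.08. Aurka, a spindle pole kinase, read 9.54, 9.43 and 9.50 against 8.98, 8.88 and 8.93. Birc5 under U0126 differed from vehicle by -0.01 and under TAE226 by -0.73.

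Genes of the S phase did not share this. Of 21 tested genes of G1/S and replication, 6 were higher and 2 lower (median 0.01). Ccne1, cyclin E1, was higher by 0.74 ± 0.13 and Rrm2, a ribonucleotide reductase subunit, by 0.36 ± 0.07. E2f1 was higher by 0.57 and lost its call without U0126 replicate 1 or 2 or TAE226 replicate 1 or 2 (adjusted p from 0.0699 to 0.0945) and by its second probe set (adjusted p = 0.0783), and the count of lower genes was 1 without U0126 replicate 1 or 2 or TAE226 replicate 3, and 0 with arrays centred. In the study's senescence axis, a list built around its theme, 5 of 12 tested genes were higher and 2 lower (1 with arrays centred). Skp2, which marks p27 for destruction, read 9.80, 9.84 and 9.99 under U0126 and 9.57, 9.65 and 9.59 under TAE226, a rise of 0.27 ± 0.07. Cdkn2a and Cdkn2b, inhibitors of CDK4 and CDK6, were higher by 0.49 ± 0.09 and 0.39 ± 0.05. Hmga2, a chromatin protein that represses Cdkn2a, read 8.18, 8.04 and 8.17 against 9.04, 9.07 and 9.28, a fall of 1.0 ± 0.12.

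Cdkn1a, which encodes p21, differed by -0.09 ± 0.06 (0.08 with arrays centred) and overlapped between the inhibitors. Cdkn1b, which encodes p27, differed by -0.02 ± 0.05 (0.15 with arrays centred), but its second probe set gave -0.55 (adjusted p = 0.00115). Both inhibitors lay below vehicle for Cdkn1b, by 0.64 log2 units under U0126 and 0.61 under TAE226. Dll1, a Notch ligand, fell by 0.28 ± 0.06 and was not called with arrays centred (adjusted p = 0.361).

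**Figure D4:**
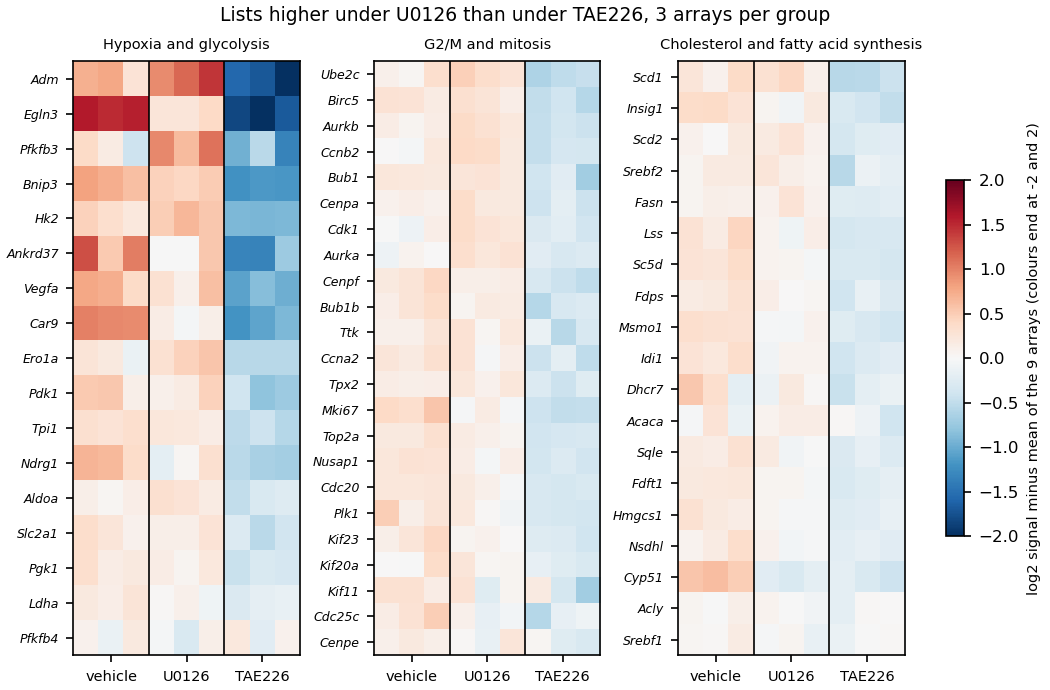
Log2 signal minus the gene's mean over the 9 arrays shown (colour, ends at -2 and 2) for all 17, 23 and 19 tested members of 3 lists (rows), on 3 arrays each of vehicle, U0126 and TAE226 (columns). Rows are sorted by U0126 minus TAE226. TAE226 columns are blue in most rows, and U0126 columns are nearer to vehicle, with medians over the 3 lists of -0.12, -0.10 and -0.19 from vehicle under U0126.

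Lipid synthesis showed the same order at a smaller size. Of 19 tested genes of cholesterol and fatty acid synthesis, 14 were higher under U0126 and none lower (median 0.32), none by 2-fold. Scd1, the desaturase that makes oleate, read 14.54, 14.64 and 14.33 under U0126 and 13.68, 13.69 and 13.80 under TAE226, a rise of 0.78 ± 0.08, and Scd2 was higher by 0.45 ± 0.06. Insig1, which holds the SREBP escort protein in the endoplasmic reticulum, rose by 0.45 ± 0.07. Oxidative phosphorylation had 8 of 17 genes higher and none lower (median 0.17), and 14 of 17 with arrays centred. Sdhb, a subunit of complex II, was higher by 0.36 ± 0.05.

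Integrin and focal adhesion genes were more often lower than higher under U0126, none by 2-fold. Of 19 tested, 9 were lower and 1 higher (median -0.10), against 19.4% of all genes lower and 17.7% higher. Leaving out single arrays gave 6 to 8 lower. With arrays centred 2 were lower and 3 higher and the median was 0.07, while with quantile normalization the median was -0.16. Itgb4, the hemidesmosome integrin, read 10.78, 10.44 and 10.34 under U0126 and 11.20, 11.43 and 11.24 under TAE226, a fall of 0.77 ± 0.10. Ilk, an integrin-linked scaffold, fell by 0.57 ± 0.08. Actn1, an actin cross-linker, rose by 0.40 ± 0.06, although its second probe set gave -0.01. Of 14 YAP and SRF targets, 5 were higher and 4 lower, with 2 lower without U0126 replicate 2 or without TAE226 replicate 3 and 1 lower with arrays centred. Axl, a receptor tyrosine kinase, rose by 1.02 ± 0.11, Amotl2, a junction protein that binds YAP, by 0.74 ± 0.06 and Ccn2, a secreted matrix protein, by 0.61 ± 0.06. All 3 were above vehicle under each inhibitor, Ccn2 by 1.44 under U0126 and 0.83 under TAE226. GGAATG, the TEAD core, was in any promoter of 10 of 12 genes and in 14.7% of all promoters, the latter counted per promoter.

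Of 11 tested collagens and matricellular genes, 3 were higher and 1 lower (none with arrays centred). Lox, which cross-links collagen, read 10.45, 10.24 and 10.26 under U0126 and 8.46, 8.31 and 8.40 under TAE226, which is 3.80-fold. Thbs1, thrombospondin 1, rose by 0.82 ± 0.07. Of 5 tested mesenchymal genes 2 were higher, Fn1 by 0.79 ± 0.14 and Vim by 0.53 ± 0.09, and 2 lower, Cdh2 and S100a4. A second probe set of Fn1 gave 0.10 (adjusted p = 0.867). S100a4, a calcium-binding protein, fell by 1.37 ± 0.18. Cdh2 was lower under U0126 than under TAE226 by 0.41, and differed from vehicle by 1.78 under U0126 and 2.20 under TAE226. Between the inhibitors Cdh2 was not called without U0126 replicate 2 (adjusted p = 0.0557), with arrays centred (adjusted p = 0.2) or by its second probe set (adjusted p = 0.219). Laminins and basement membrane genes had 4 of 9 higher and none lower, with Col4a2 among the higher and also counted with the collagens. Lama3 rose by 0.70 ± 0.10. The higher count of this list was 2 without U0126 replicate 1 or 2 or TAE226 replicate 2 or 3, and 1 without TAE226 replicate 1.

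Keratins and cornification genes moved in both directions. Of 14 keratinization genes tested, 5 were lower and 3 higher, 4 and 2 of them at least 2-fold by fitted values. The 4 include dim genes, whose bounds are smaller. Sprr1a and Sprr1b, small proteins cross-linked into the cornified envelope, were dim under U0126 and at least 2.88-fold and 1.56-fold lower. Klk6, a kallikrein protease, read 5.73, 6.16 and 6.08 under U0126 and 10.69, 10.72 and 10.80 under TAE226, at least 22.1-fold lower. Klk7, which was dim under U0126, was at least 1.87-fold lower. Krt6a, a keratin of stressed epithelium, read 12.49, 12.44 and 12.40 against 10.86, 10.83 and 10.95, and Tgm1, the transglutaminase of the envelope, rose by 1.48 ± 0.14. Krt17 rose by 1.51 ± 0.14 and Krt14, a basal keratin, by 0.55 ± 0.08. Krt15, another basal keratin, was dim under U0126 and its bright level under TAE226 was too low for a bound.

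Basal genes had 3 of 10 higher and 5 lower, and the lower count was 2 without U0126 replicate 2 and 3 without TAE226 replicate 1 or 3 or with arrays centred. The lower members were Krt15, Trp63, Acta2, Mylk and Id4, with Id4 at -1.83 ± 0.17 (-0.98 by its second probe set). Luminal genes had 3 of 13 higher and 5 lower, and none lower with arrays centred. Called lower were Epcam, Gata3, Cldn3, Cldn7 and Kit. Krt19 rose by 0.94 ± 0.06 and Krt7 by 0.88 ± 0.07, with Krt7 at 13.75, 13.84 and 13.61 under U0126 and 12.70, 12.99 and 12.86 under TAE226. Aldh1a3, an enzyme of retinoic acid synthesis, rose by 1.31 ± 0.20.

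In the IGF axis, 3 of 10 tested genes were higher and 5 lower (3 lower with arrays centred). Igfbp2, which binds IGFs, read 9.40, 9.31 and 9.27 under U0126 and was dim under TAE226, so it was at least 7.36-fold higher. Pappa, the protease that cuts IGF-binding proteins, read 8.53, 8.31 and 8.48 under U0126, 10.58, 10.62 and 10.48 under TAE226 and 7.59, 7.32 and 7.07 in vehicle. It was 4.35-fold lower under U0126 than under TAE226 and above vehicle in both. Igfbp7 was lower under U0126 than under TAE226 by 1.11 ± 0.11, and differed from vehicle by 0.84 under U0126 and 1.94 under TAE226. Stc2, a stanniocalcin that inhibits the protease, was higher under U0126 than under TAE226 by 1.38 ± 0.15. From vehicle it differed by -1.19 under U0126 and -2.57 under TAE226. Of 16 FOXO and insulin pathway genes, 8 were lower (2 with arrays centred) and 1 higher (2 without U0126 replicate 1). Txnip, an arrestin that limits glucose uptake, read 9.40, 9.47 and 9.46 against 10.92, 11.12 and 10.98, with vehicle between at 10.56, 10.63 and 10.48.

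Of 14 TGF-beta and BMP outputs tested, 4 were higher and 5 lower (2 lower with arrays centred). Id3, which sequesters basic helix-loop-helix factors, read 8.42, 8.50 and 8.53 under U0126, 10.02, 9.89 and 10.03 under TAE226 and 7.83, 7.86 and 8.09 in vehicle, so TAE226 was the highest group. Tgfb2 rose by 1.26 ± 0.11 and Inhba, the activin subunit, by 1.20 ± 0.11. In the Notch pathway 5 of 13 were higher and 2 lower, and 1 lower without U0126 replicate 1 or TAE226 replicate 2, and none lower with arrays centred. Nrarp, which shortens the life of the Notch intracellular domain, read 9.72, 9.93 and 9.68 against 8.54, 8.19 and 8.29, and Hey1, a target of the pathway, rose by 0.84 ± 0.06. Hey1 lay below vehicle under each inhibitor, by 0.43 log2 units under U0126 and 1.26 under TAE226.

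Of 14 chemokines tested, 5 were higher and 5 lower. Ccl6 read 8.92, 9.86 and 9.51 under U0126 and 7.49, 7.32 and 7.46 under TAE226, and Ccl28, a mucosal chemokine, rose by 1.52 ± 0.14. Ccl5, which was dim under U0126, was at least 3.11-fold lower. Of 16 S100 and defence genes, 7 were lower and 2 higher. S100a8, a subunit of calprotectin, read 6.62, 6.29 and 6.49 against 8.69, 8.56 and 8.71, and Wfdc2, a protease inhibitor, rose by 0.90 ± 0.07. Cd14, the co-receptor for lipopolysaccharide, read 10.99, 10.90 and 11.02 under U0126 and 12.75, 12.84 and 12.84 under TAE226, a fall of 3.58-fold. The macrophage genes beside it lay close to the array medians, so lack of a call there cannot show whether macrophage RNA followed Cd14. Adgre1 differed by -0.06 (0.11 with arrays centred), Csf1r by -0.49 and Cd68 by 0.52, none of them called.

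Some of the widest differences lay outside the lists. Mal, a raft proteolipid of apical sorting, read 13.70, 13.88 and 13.62 under U0126, 10.11, 10.52 and 10.44 under TAE226 and 7.50, 7.16 and 7.20 in vehicle, so it was 10.4-fold higher under U0126 than under TAE226 and above vehicle in both. Hopx, a homeodomain protein that binds no DNA, read 12.76, 12.86 and 12.59 against 9.61, 10.04 and 10.05. Arg1, which splits arginine to ornithine and urea, read 11.68, 11.86 and 11.74 under U0126, 8.98, 9.10 and 9.17 under TAE226 and 11.26, 11.24 and 11.03 in vehicle. Sox11, a developmental factor, read 11.18, 11.11 and 11.04 against 9.15, 9.44 and 9.35, and vehicle lay lowest at 6.42, 6.93 and 6.58. Of 7 SOX factors it was the member called higher, with 4 lower (2 with arrays centred), and a second member was higher without TAE226 replicate 2.

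Msln, the surface protein mesothelin, and Kif26a, an atypical kinesin, were dim under TAE226 and at least 3.35-fold and 2.28-fold higher under U0126. Rragd, a Rag GTPase of the lysosome, was at least 1.25-fold higher, and Mybpc2 was dim under TAE226 with no bound above 1. Aldh1a1 was at least 1.71-fold higher and lost its call without TAE226 replicate 1 (adjusted p = 0.0537). Dim under U0126 were Clca3a2, at least 2.80-fold lower, Dmp1, an acidic matrix phosphoprotein, at least 4.49-fold lower, Fam20a, a secretory pathway pseudokinase, at least 2.94-fold, and AF067061 at least 1.51-fold. The RIKEN genes 2310057J18Rik and 4930431P03Rik were at least 13.4-fold and 1.25-fold lower.

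Remaining lists gave smaller or mixed counts, to be read against 17.7% of all genes called higher and 19.4% called lower. Of 18 stress and unfolded protein genes, 5 were higher and 5 lower, and Phgdh, the first enzyme of serine synthesis, rose by 1.20 ± 0.07. The lower count there was 2 to 3 without U0126 replicate 1 or 3 or TAE226 replicate 2, and the higher count 3 without U0126 replicate 2. Of 18 p53 targets 4 were higher and 7 lower, the latter 4 without U0126 replicate 1 and 3 without TAE226 replicate 3. Of 14 BCL2 family genes 2 were higher and 3 lower, and Bbc3, the death effector PUMA, fell by 0.74 ± 0.10. ERBB ligands and receptors had 2 of 9 higher and 2 lower, with Erbb3 down by 0.60 ± 0.06 and Tgfa up by 0.74 ± 0.11, and 1 higher without TAE226 replicate 2. A second probe set of Tgfa gave 0.03 (adjusted p = 0.912). Matrix proteases and inhibitors had 2 of 11 higher and 3 lower, the latter 1 without U0126 replicate 2 or TAE226 replicate 1 or 2, and Timp3 rose by 0.47 ± 0.08.

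WNT pathway genes had 2 of 12 higher and 3 lower, with Wnt7b up by 0.64 ± 0.11 (0.58 and adjusted p = 0.0763 by its second probe set), and 1 higher without U0126 replicate 3 or TAE226 replicate 2 or 3. Lysosome and autophagy genes had 5 of 16 higher and 3 lower, with Hexa, a lysosomal hexosaminidase, up by 0.90 ± 0.08, and 3 higher without U0126 replicate 2. Ribosome biogenesis had 4 of 18 higher and 2 lower, against 17.7% and 19.4% of all genes. Among the higher members, Wdr12 (-1.02, adjusted p = 5.09e-06) and Pes1 (-0.445, adjusted p = 0.0297) were called lower by their second probe sets. Ribosomal protein genes had 7 of 15 higher and none lower, but this count ran from 2 without U0126 replicate 2 or TAE226 replicate 1, through 4 without U0126 replicate 1, to 11 without U0126 replicate 3. Motile cilia genes had 2 of 5 lower, and 1 without TAE226 replicate 1. With arrays centred, lower counts fell to 2 for stress genes and for p53 targets, 1 for ERBB, lysosome and cilia genes, and 0 for matrix proteases, WNT genes and ribosome biogenesis. Higher counts then were 15 of 15 for ribosomal proteins, 7 for ribosome biogenesis and 4 for matrix proteases.

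**Figure D5:**
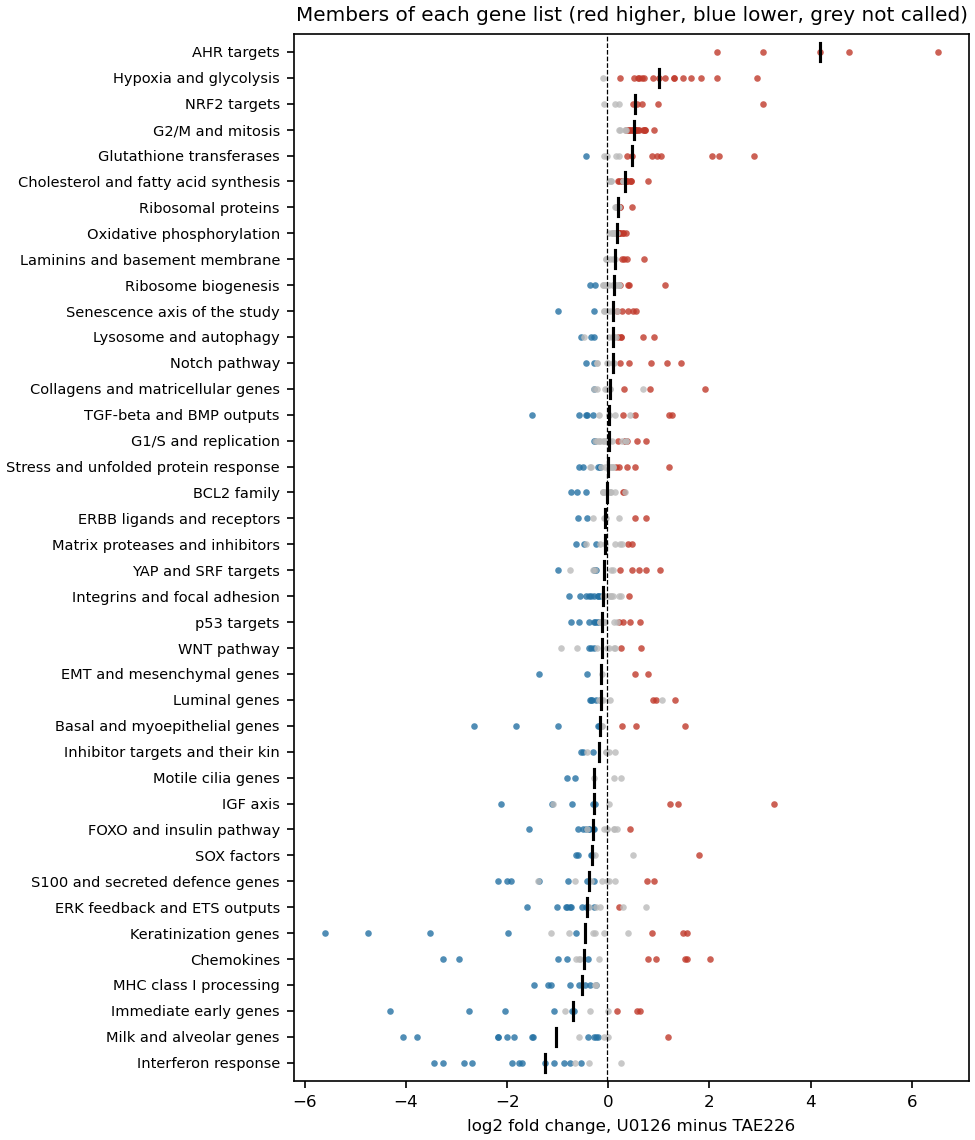
Log2 fold change, U0126 minus TAE226 (x axis), of the tested members of each list with at least 5 of them (y axis, sorted by median). Points are genes, red where called higher under U0126, blue where called lower and grey where not called, black bars are list medians and the dashed line is the median of all genes, -0.03. AHR targets lie farthest to the right (median 4.19) and interferon genes farthest to the left (median -1.26).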

How the data were processed

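The authors deposited signal intensity on a linear scale, 1 value per probe set and array, made with Affymetrix Expression Console and MAS5 per the submitters' processing notes. No source used here gives the settings. The deposited intensities share a trimmed mean of 500 on every array. Of 45101 probe sets, 34945 named exactly 1 gene. Gene names came from the platform annotation, updated by Entrez ID for 34741. For each of 18193 genes the brightest probe set was used, by mean log2 signal over 15 arrays. Testing used limma 3.58.1 in R 4.3.3, with the log2 signals of all 5 groups in 1 fit (10 residual degrees of freedom, intensity trend, no pseudocount), and Benjamini-Hochberg adjustment over all genes tested. The script was tested on simulated data. A gene is called dim where all 3 arrays of a group lie below their medians, and its fold is then computed from those medians as a lower bound.

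Members and lists were chosen with earlier results of these data known. Named genes were the 15 greatest differences in each direction (called, not overlapping and bright in the higher group), up to 4 called members of each list, and all inhibitor targets and ERK outputs. Some others were named after their values were seen, among them Csn3, Tiparp, Vegfa, Car9, Krt6a, Tgm1, Oas1a, Stat2, Fos, Junb, Ier3, Fosl2, Myc and the epithelial and macrophage markers. Replicate numbers did not pair the arrays, since deviations of same-numbered arrays correlated at -0.13, 0.0056 and -0.096. Alternatives were scaling, pseudocounts, filters, other probe sets, a replicate block, only 6 arrays in the fit and each array left out.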

Additional observations from a re-analysis of the deposited data

How the results depend on the processing

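Of 200 named genes that were called, 140 kept direction and call in all 16 other settings run, 24 lost the call on leaving out some single array, 29 with arrays centred on their medians and 5 with a replicate block. The fit with the replicate block called 4082 genes (1961 higher and 2121 lower), against 4250 without it. The replicates share only a number, so this is no pairing. Leaving out single arrays gave 3566 to 3939 called genes. Centring gave 768 genes lower and 282 at least 2-fold higher, and a pseudocount at the median signal gave 96 at least 2-fold higher and 116 at least 2-fold lower. With the second brightest probe set, 30 of 91 called genes lost the call or turned direction. The 5 that turned were Actn1 (-0.00841), Ndufb8 (-0.111), Parva (0.0167), Pes1 (-0.445) and Wdr12 (-1.02), and the cause was not tested. In some other genes second probe sets kept the call but moved the fold by over 1.5 times, to log2 differences given here. Among them were Scd1 (2.08), Scd2 (1.06), Gsta3 (1.13), Pappa (-1.17), Adm (3.65), Cyp1b1 (4.99) and Aldh1a3 (2.40). Others were Id4 (-0.98), Csn2 (-0.98), Csn3 (-3.15) and Ddx60 (-3.19). Mitotic genes higher were then 12 and lipid synthesis genes 8, over fewer members measured. Counts of list members moved by over 1.5 times in 85 of 880 cases outside single-array omissions. Reading only the 250 bases before the start, the share of all promoters was 28.2% for GCGTG, 6.75% for the AP-1 site, 2.98% for the interferon element, 16.6% for ACGTG and 12.6% for the TEAD core. A version taking _x_at probe sets only where a gene has no other was chosen after seeing the data and called 4249 genes. Dim probe sets limit folds to bounds.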

Other observations

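Probe sets that name no gene or several genes belong to no comparison above. Of 3346 such probe sets tested in the same limma fit over all probe sets, 864 (25.8%) were called between U0126 and TAE226, 275 of them higher and 589 lower under U0126. At least 2-fold differences by fitted values were found for 19 higher and 100 lower.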
